A study of Mus musculus with 3008 samples.

Results

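Foxp3+ regulatory T cells (Tregs) of the mouse colon were compared by which of 2 effector transcripts they held: Gzmb, which encodes the cytotoxic protease granzyme B, or Il10, which encodes an anti-inflammatory cytokine. Transcripts were counted as unique molecular identifiers (UMIs), the barcodes that mark each captured mRNA molecule. Colon cells with 1500 or more UMIs were kept. A cell with 2 or more Gzmb UMIs and 0 Il10 UMIs was called Gzmb-only, and a cell with 2 or more Il10 UMIs and 0 Gzmb UMIs was called Il10-only. The rule found 217 Gzmb-only and 283 Il10-only cells, in all 500 of the 1828 colon cells at this depth and of 3008 cells in the whole series. The cells were thus chosen by their Gzmb and Il10 counts, so the values of both genes are given only as a description, and both were left out of every comparison and of every total.

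The cells came from 2 inDrops libraries of colon lamina propria, called colon 1 and colon 2, and another library held splenic Tregs. In every library the donors were male B6 mice aged 7 months that carried Foxp3-Ires-Gfp, a reporter that makes Foxp3-expressing cells fluoresce green. Per the labels, the digested tissue was sorted for live GFP+ cells positive for the T cell receptor beta chain and CD4, so no group here lacked the reporter. The deposited cell annotation gives the condition of every cell as SPF (specific pathogen free). The labels name no animal, and the second colon library is a second replicate by its title but carries the number of the first in its sample type. The colon was therefore taken as 1 sample with 2 libraries shown apart, and no p-value can be given.

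Tregs restrain other immune cells by several routes, among them surface inhibitory receptors, secreted cytokines and killing of target cells. In the intestine, IL-10 from Tregs limits inflammation toward the microbiota, and granzyme B is stored in granules and delivered into target cells. A population of colonic Tregs is known for the transcription factor GATA3, the IL-33 receptor ST2 (encoded by Il1rl1) and often Helios (Ikzf2).

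Colon 1 held 619 cells, of which 431 had 1500 or more UMIs, and colon 2 held 1772 cells, of which 1397 did. In colon 1 the Gzmb-only cells numbered 54 and the Il10-only cells 69, and in colon 2 the numbers were 163 and 214. Depth was close between the groups: the median was 2069 UMIs in Gzmb-only and 1897 in Il10-only cells of colon 1, and 2165 and 2188.5 in colon 2. Summed over cells, the groups held 120887 and 155089 UMIs in colon 1 and 389662 and 528571 in colon 2 after Gzmb and Il10 were removed. The libraries differed in sequencing effort, with a median of 49.8 mapped reads per UMI in colon 1 and 20.6 in colon 2. They shared 9 cell barcodes, of which 1 lay among the compared cells.

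The Treg label was checked first. Levels are given as CPM, the UMIs of a gene scaled to a total of 1000000 UMIs of its group. Foxp3 stood at 438 CPM in Gzmb-only and 368 CPM in Il10-only cells of colon 1, and at 316 CPM in each group of colon 2. Il2ra, Ctla4, Cd3d and Cd4 were also found in both groups of both libraries. Of 93 markers of other cell types, 51 had 0 UMIs in these cells, and all 93 together gave 85 UMIs in Gzmb-only and 87 in Il10-only cells of colon 1. In colon 2 they gave 215 and 361 UMIs. The 14 macrophage or dendritic cell markers gave 30 and 31 UMIs in colon 1 and 67 and 147 in colon 2, mostly Cst3 with 58 and 104 in colon 2, where Apoe gave 1 and 17, Fcer1g 0 and 9 and C1qa 0 and 5. Csf1r and Itgax of that list were at 0. The 14 B cell markers gave 18 and 14 UMIs in colon 1 and 29 and 98 in colon 2, led by the MHC class II chaperone Cd74 with 17 and 54 in colon 2 while Cd79a was at 0 and H2-Eb1 gave 10 and 0 UMIs in colon 1 and 1 and 24 in colon 2. The 13 markers of CD8 T cells, NK cells and innate lymphoid cells gave 20 and 8 UMIs in colon 1, or 165 and 51.6 CPM, and 34 and 49 UMIs in colon 2. Nkg7 (10 and 2 UMIs in colon 1, 14 and 17 in colon 2) and Cd8b1 (9 and 5, 10 and 24) led that list, while Cd8a, Ncr1 and Klrb1c were at 0. Leaving out cells with 2 or more markers of another type removed 2 of 54 Gzmb-only and 0 of 69 Il10-only cells of colon 1. In colon 2 it removed 1 of 163 and 4 of 214. With so few cells removed, the calls could change little. The 4 and 12 of the 13 genes given below as called were kept, with Mkrn1 lost under 30 UMIs and Cxcr4 gained. The part of these transcripts in the results was not tested beyond that.

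More cells held both transcripts than either alone. In what follows, cells with both (double-positive) held 2 or more UMIs of each gene and cells with neither (double-negative) held none. Of the colon 1 cells, 128 held 2 or more UMIs of both genes, 173 held at least 1 UMI of each, and 93 held none of either. The same counts in colon 2 were 443, 569 and 354. Il10 reached 2 UMIs in 60.7% of the colon 1 cells with 2 or more Gzmb UMIs (95% Clopper-Pearson interval 53.7 to 67.3%) and in 36.5% of those with 0 (29.6 to 43.8%). In colon 2 the shares were 64.8% (61.1 to 68.3%) and 34.2% (30.5 to 38.0%). A deeper cell shows more of every gene, so each cell was also thinned to 1500 UMIs before it was classed, a step added after seeing the data. The shares were then 52.4% and 31.5% in colon 1, and 55.0% and 28.6% in colon 2. These shares set cells with 2 or more Gzmb UMIs beside cells with 0 and leave out those with 1. They describe the counts that chose the cells, and nothing is read from them.

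**Figure D1:**
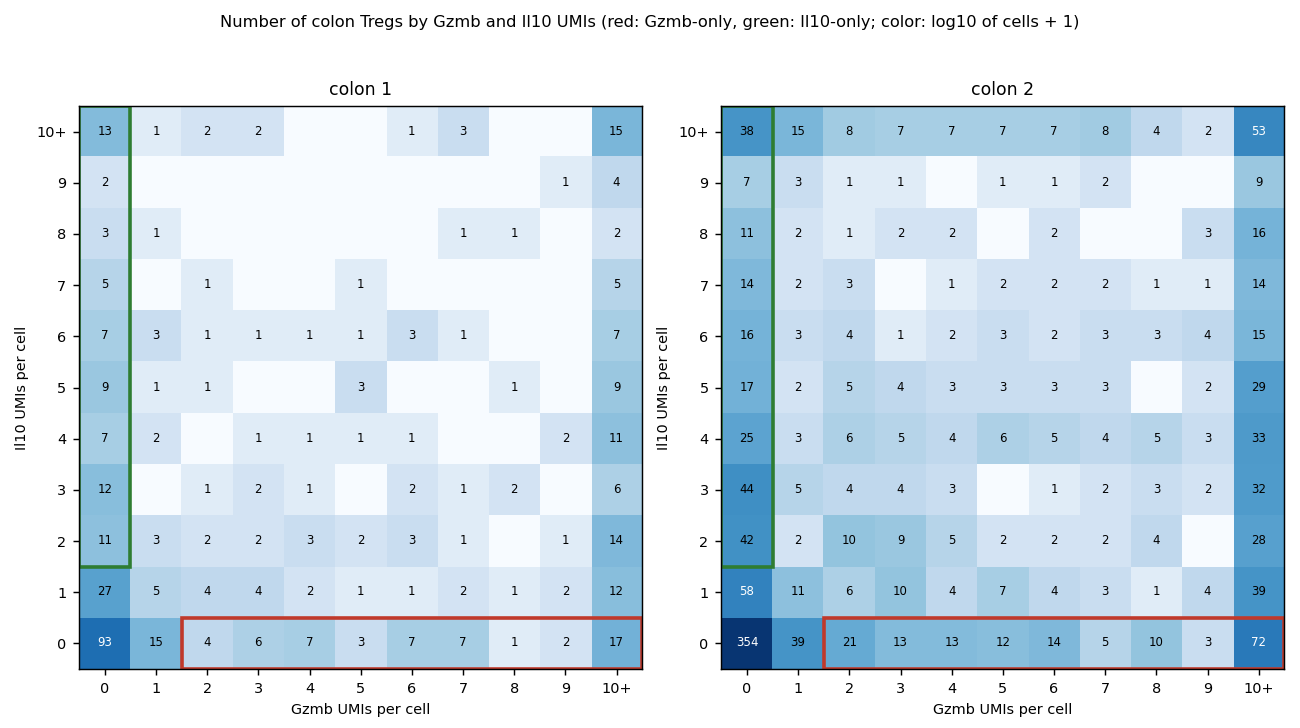
Number of colon cells with 1500 or more UMIs at each pair of Gzmb (horizontal axis) and Il10 (vertical axis) UMI counts, with 10 or more pooled, in colon 1 (left) and colon 2 (right). The red frame holds the 54 and 163 Gzmb-only cells and the green frame the 69 and 214 Il10-only cells, and the largest entries are the cells with neither, 93 and 354.

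Within the groups the chosen transcript was abundant. The median Gzmb count was 6.5 per Gzmb-only cell in colon 1 and 8 in colon 2, with highest values of 51 and 45. The median Il10 count was 5 and 4 per Il10-only cell, with highest values of 43 and 38. Near the thresholds, 4 cells of colon 1 and 21 of colon 2 had exactly 2 Gzmb UMIs without Il10, and 15 and 39 had exactly 1. Exactly 2 Il10 UMIs without Gzmb were seen in 11 and 42 cells, and exactly 1 in 27 and 58. Cells with 2 or more Gzmb UMIs and 1 Il10 UMI, which the rule leaves out, numbered 29 and 78, and cells with 2 or more Il10 UMIs and 1 Gzmb UMI numbered 11 and 37. The first 100 UMIs above the depth limit held 9 Gzmb-only and 7 Il10-only cells in colon 1, and in the 100 UMIs below it 4 and 10 cells would have met the other conditions. In colon 2 these numbers were 8 and 14 above the limit and 7 and 14 below it. A count of 0 in cells of this depth does not show that the transcript was absent, and the share of cells misplaced for that reason or by free RNA in the droplets was not tested. In the spleen library, prepared apart, Gzmb had a UMI in 2.55% and Il10 in 2.97% of 471 cells at a median depth of 2036 UMIs, against 56.1% and 62.4% in colon 1 at 2024 UMIs and 55.2% and 60.2% in colon 2 at 2220 UMIs. Only 8 splenic cells were Gzmb-only and 9 Il10-only, so the comparison was not made there.

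For each gene, UMIs were summed over the cells of a group within a library, scaled to CPM, and the Gzmb-only sum was divided by the Il10-only sum. A positive log2 ratio therefore means a higher level in Gzmb-only cells. Genes with 30 or more UMIs over both groups in each library were eligible, which left 1541 genes. Each ratio carries a 95% exact conditional binomial interval, which covers counting error only and is too narrow where a few cells hold many of a gene's UMIs.

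Few genes separated the groups in both libraries. At a threshold of 2-fold in the same direction in colon 1 and colon 2, 4 genes were higher in Gzmb-only cells, which is 0.26% of the eligible genes, and 13 were higher in Il10-only cells, which is 0.844%. Another 3 genes (0.195%) passed 2-fold in opposite directions. The 4 were Pcyt1a, Iigp1, Serpina3g and Gbp2. The 13 were Ccr7, Lag3, Nt5e, Dcaf15, Cyfip1, Mkrn1 and 7 histone genes. At 1.5-fold the counts were 27 (1.75%) and 43 (2.79%), with 25 (1.62%) in opposite directions. With no fold threshold, both counting intervals lay above 0 for 45 genes (2.92%) and below 0 for 50 (3.24%), while 30 (1.95%) had them on opposite sides.

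The libraries differed in how widely their ratios spread. The standard deviation of the log2 ratio over the 1541 genes was 0.70 in colon 1 and 0.39 in colon 2, with medians of -0.013 and -0.026. Colon 1 alone put 100 genes 2-fold higher in Gzmb-only cells (6.49%) and 117 in Il10-only cells (7.59%), whereas colon 2 alone put 9 (0.584%) and 28 (1.82%) there. Of the 9 genes that colon 2 placed 2-fold higher in Gzmb-only cells, 6 had the same sign in colon 1 and 4 passed 2-fold. Of the 28 that it placed higher in Il10-only cells, 21 had the same sign in colon 1 and 13 passed 2-fold. In the other direction, of the 100 and 117 genes that colon 1 placed 2-fold higher in Gzmb-only and in Il10-only cells, 59 and 79 kept the sign in colon 2, with median log2 ratios there of 0.084 and -0.20. Ratios of single genes in colon 1 are given below only beside those of colon 2.

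**Figure D2:**
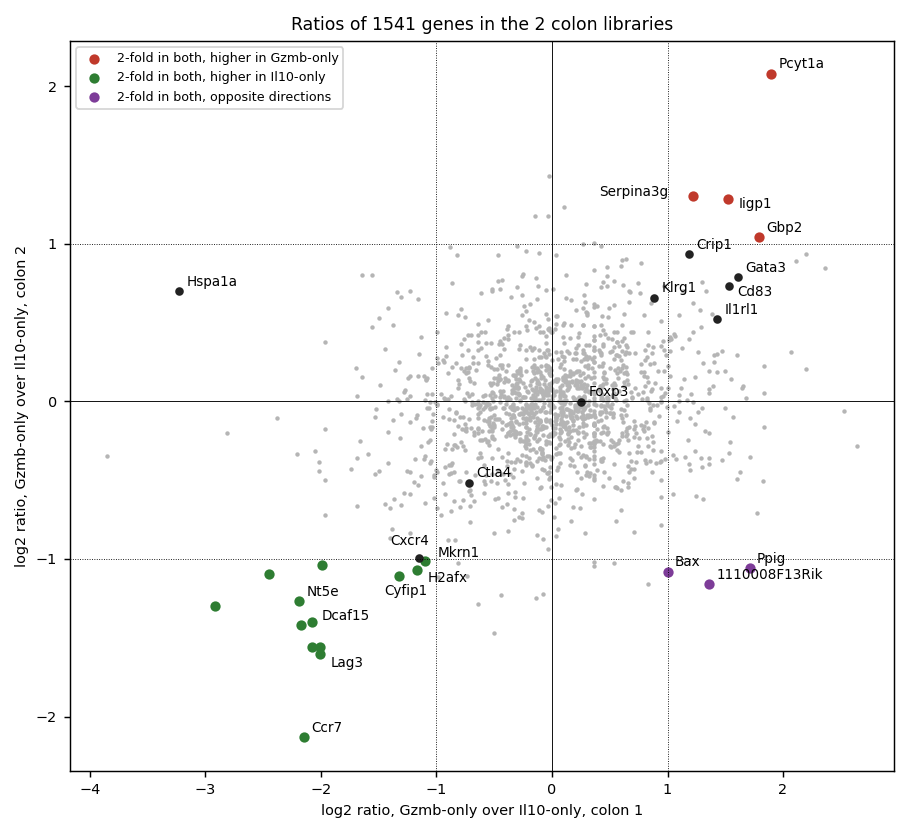
Log2 ratio of Gzmb-only over Il10-only cells in colon 1 (horizontal axis) and colon 2 (vertical axis), each point 1 of 1541 eligible genes, with dotted lines at 2-fold. The 4 red genes pass 2-fold in favor of Gzmb-only cells in both libraries, the 13 green genes in favor of Il10-only cells, and the 3 purple genes pass it in opposite directions.

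The gene furthest toward Gzmb-only cells was Pcyt1a, which encodes the rate-limiting enzyme of phosphatidylcholine synthesis (chromosome 16, 32430921 to 32475070, mm10). Its level was 240 CPM in Gzmb-only and 64.5 CPM in Il10-only cells of colon 1, from 29 and 10 UMIs. In colon 2 it was 216 and 51.1 CPM, from 84 and 27 UMIs. Both libraries placed the groups far apart at similar levels. The UMIs came from few cells, 8 Gzmb-only and 5 Il10-only cells of colon 1, the highest with 6 and 4. In colon 2 they lay in 35 and 22 cells. The ratio was 3.72 in colon 1 (log2 1.90, interval 0.82 to 3.10) and 4.22 in colon 2 (log2 2.08, interval 1.44 to 2.76). After thinning, 14.8% of Gzmb-only and 5.80% of Il10-only cells of colon 1 held a Pcyt1a UMI, and 16.0% and 7.94% of those of colon 2. Cells with both transcripts lay between, at 108 and 124 CPM, and cells with neither were near the Il10-only cells, at 77.9 and 66.4 CPM. In each library both classes with Gzmb were above both classes without it. Outside these 4 classes, cells with 0 Gzmb UMIs and exactly 1 Il10 UMI stood at 32.8 CPM in colon 1. In colon 2 such cells stood at 156 CPM, above the double-positive cells. Cells with 2 or more Gzmb UMIs and exactly 1 Il10 UMI stood at 156 CPM in each library. In the spleen library Pcyt1a stood at 7.49 CPM.

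Of the other 3, Iigp1 and Gbp2 encode interferon-induced GTPases that act against intracellular microbes, and Serpina3g encodes a serine protease inhibitor. Iigp1 stood at 314 CPM in Gzmb-only and 110 CPM in Il10-only cells of colon 1 (log2 1.52, interval 0.66 to 2.44), and at 180 and 73.8 CPM in colon 2 (log2 1.28, interval 0.70 to 1.89). Gbp2 stood at 290 and 83.8 CPM in colon 1 (log2 1.79, interval 0.83 to 2.83) and at 241 and 117 CPM in colon 2 (log2 1.04, interval 0.56 to 1.53). Serpina3g stood at 165 and 70.9 CPM in colon 1 (log2 1.22, interval 0.091 to 2.43) and at 131 and 53.0 CPM in colon 2 (log2 1.30, interval 0.61 to 2.02).

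Both GTPases came from few cells. The 38 Iigp1 UMIs of colon 1 Gzmb-only cells lay in 8 cells, of which the highest held 13, and the 35 Gbp2 UMIs lay in 7 cells, of which the highest held 15. When cells with 2 or more UMIs of cell cycle genes were left out, which removed 2 of the 54 Gzmb-only cells of colon 1, the Gbp2 log2 ratio there was 0.91 and that of Iigp1 0.96. In colon 2 without such cells they were 0.89 and 1.28, and Serpina3g then fell under 30 UMIs in colon 1. After thinning, the Gbp2 log2 ratio was 0.80 in colon 1 and 1.02 in colon 2, whereas Iigp1 and Serpina3g stayed over 2-fold in both libraries. With a minimum of 1 UMI of Gzmb or Il10 in place of 2, only Pcyt1a of the 4 passed, and the mean log2 ratio over the libraries was 0.78 for Iigp1, 0.45 for Serpina3g and 1.06 for Gbp2. Unlike Pcyt1a, these 2 genes were not raised in cells with both transcripts: Iigp1 was at 91.5 and 105 CPM there and Gbp2 at 91.5 and 113 CPM, close to the cells with neither, at 105 CPM in each library for Iigp1 and 96.3 and 111 CPM for Gbp2.

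Because 2 of the 4 genes are interferon-induced, promoters were searched on both strands for the core of the interferon-stimulated response element, GAAA followed by any 2 bases and GAAA, and for TTCNNNGAA, the gamma-activated site of interferon-gamma responses. The windows were the 250 bases before each RefSeq gene start (build GRCm38.p6). Among the 15 genes furthest toward Gzmb-only cells, 13 had at least 1 window, and 2 of them, Gbp2 and Lgals9, held the response element core, against 3.46% of 27025 genes in the table. Iigp1 and Cd83 had no window and could not be searched. TTCNNNGAA was found in 1 of the 13, Serpina3g, against 8.13% of all genes. Of the 15 genes furthest toward Il10-only cells, 4 had a window, and 0 of these held either motif. The rest, among them Ccr7, Lag3, Cyfip1 and the histone genes, had no window and could not be searched. The 3 windows with a match are printed 5′ to 3′ along the gene with the matched bases in capitals, since they let the positions be read. The Gbp2 window is chr3:142620413-142620662 on the plus strand, with the core on the opposite strand at bases -59 to -50 from the start. The Lgals9 window is chr11:78984925-78985174 on the minus strand, with the core on the opposite strand at -55 to -46. The Serpina3g window is chr12:104235897-104236146 on the plus strand, with TTCNNNGAA at -33 to -25.
Gbp2: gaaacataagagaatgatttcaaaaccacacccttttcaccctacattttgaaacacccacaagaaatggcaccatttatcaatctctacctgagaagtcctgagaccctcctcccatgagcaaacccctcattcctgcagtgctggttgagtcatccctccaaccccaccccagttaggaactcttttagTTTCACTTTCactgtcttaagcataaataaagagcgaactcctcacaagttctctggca
Lgals9: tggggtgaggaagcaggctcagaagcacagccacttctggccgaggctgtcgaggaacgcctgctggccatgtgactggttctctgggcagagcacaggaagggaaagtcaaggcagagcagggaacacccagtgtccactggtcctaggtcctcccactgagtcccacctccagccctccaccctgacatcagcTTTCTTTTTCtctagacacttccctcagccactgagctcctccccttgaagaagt
Serpina3g: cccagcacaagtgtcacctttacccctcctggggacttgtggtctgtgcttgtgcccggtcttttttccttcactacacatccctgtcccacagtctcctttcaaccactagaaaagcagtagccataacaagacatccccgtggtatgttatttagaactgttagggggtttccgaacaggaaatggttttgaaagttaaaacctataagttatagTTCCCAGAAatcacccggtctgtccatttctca
A match to letters is a description of these windows and no evidence of binding.

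The GATA3-ST2 genes were higher in Gzmb-only cells. Gata3, the transcription factor that defines the population (chromosome 2, 9857078 to 9890034, minus strand), stood at 728 CPM in Gzmb-only and 239 CPM in Il10-only cells of colon 1, from 88 and 37 UMIs. In colon 2 it stood at 672 and 390 CPM, from 262 and 206 UMIs. The log2 ratio was 1.61 (interval 1.04 to 2.20) and 0.79 (interval 0.52 to 1.06), so the direction was shared and the size was not. Il1rl1, the ST2 gene, gave 1.43 (interval 0.77 to 2.12) and 0.52 (interval 0.15 to 0.90). Ikzf2, the Helios gene, gave 0.96 (interval 0.50 to 1.43) and 0.39 (interval 0.13 to 0.64), and stood about as high in cells with neither transcript, at 821 and 846 CPM, as in the Gzmb-only cells, at 827 and 665 CPM. Klrg1, an inhibitory receptor of terminally differentiated lymphocytes that marks this population too, gave 0.89 (interval 0.45 to 1.33) and 0.66 (interval 0.47 to 0.85). In cells that the rule leaves out, Gata3 was higher on the Gzmb side in colon 2 only. With 1 UMI of the other gene, cells with 2 or more Gzmb UMIs stood at 363 and 488 CPM in colon 1 and colon 2. Those with 2 or more Il10 UMIs stood at 601 and 313 CPM. Cells with exactly 1 Gzmb UMI and 0 Il10 UMIs stood at 294 and 860 CPM. Those with exactly 1 Il10 UMI and 0 Gzmb UMIs stood at 410 and 267 CPM.

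Of the 14 genes of the GATA3-ST2-Helios list, 8 were eligible. Their median log2 ratio was 0.85 in colon 1 and 0.56 in colon 2, beside -0.013 and -0.026 over all eligible genes, and 5 were higher in Gzmb-only cells in both libraries, 0 lower in both. Over all 1541 genes, 25.2% were higher in both and 29.2% lower in both at any size. None of the 8 passed 2-fold in both libraries. The 3 that changed sign were Areg, which encodes the repair factor amphiregulin (-0.45 and 0.38), Penk (-1.56 and 0.80) and Nr4a1 (-0.78 and 0.59).

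Counted per cell, a UMI of Gata3 or Il1rl1 was found in 55.6% of Gzmb-only (interval 41.4 to 69.1%) and 29.0% of Il10-only cells (18.7 to 41.2%) of colon 1 after thinning to 1500 UMIs. In colon 2 the shares were 46.6% (38.8 to 54.6%) and 35.05% (28.7 to 41.8%), with overlapping intervals. Without thinning they were 61.1% and 30.4% in colon 1, and 50.9% and 41.6% in colon 2. Cells with both transcripts gave 38.3% and 32.7% after thinning, and cells with neither 29.0% and 37.0%. The Gzmb-only cells were the highest of the 4 classes in each library. Many Gzmb-only cells had no UMI of either gene at this depth, which does not show that they lacked them.

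The contrast was also read within these cells. Among cells with a Gata3 or Il1rl1 UMI, 1 of 714 eligible genes passed 2-fold toward Gzmb-only cells and 0 toward Il10-only cells. The 1 gene was the unnamed 2410006H16Rik. Among cells without, 0 and 5 of 899 did, and the 5 were Nt5e, Cyfip1, Sf3b2, Fryl and Mir684-2, of which only the first 2 were among the 13. Most of the 17 genes of the full comparison fell under 30 UMIs in these smaller sets (16 with and 13 without such a UMI). Of the 17, only Gbp2 stayed eligible among cells with a UMI, with log2 ratios of 0.53 in colon 1 and 0.32 in colon 2. Among cells without, Iigp1 (1.801 and 0.879) and Lag3 (-0.956 and -1.495) stayed eligible but did not pass 2-fold in both libraries. Crip1, eligible in both sets but not among the 17, gave 1.16 and 0.90 with a UMI and 1.10 and 0.94 without. Ctla4, likewise not among the 17, gave -0.245 and -0.234 with a UMI and -0.8997 and -0.661 without. Klrg1 gave -0.26 and 0.41 among cells with a UMI and 2.25 and 0.84 among cells without.

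Crip1, which encodes a small LIM-domain protein and was found in most cells of both groups, stood at 3094 CPM in Gzmb-only and 1361 CPM in Il10-only cells of colon 1, and at 2700 and 1413 CPM in colon 2. Its log2 ratio was 1.19 (interval 0.94 to 1.44) and 0.93 (interval 0.80 to 1.07), just under 2-fold in colon 2. After thinning, 88.9% of Gzmb-only and 72.5% of Il10-only cells of colon 1 held a Crip1 UMI, and 81.0% and 61.7% of those of colon 2. Cells with both transcripts were again between, at 2251 and 2145 CPM. Lmna, the gene of the nuclear lamins A and C, gave 1.28 (interval 0.89 to 1.68) and 0.58 (interval 0.39 to 0.76), and S100a6, a calcium-binding protein gene of activated T cells, gave 0.50 and 0.59.

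Cd83, an activation-induced surface protein that stabilizes MHC class II and CD86 on antigen-presenting cells, stood at 893 and 310 CPM in colon 1 and at 667 and 401 CPM in colon 2. Its log2 ratios were 1.53 (interval 1.03 to 2.05) and 0.73 (interval 0.47 to 1.003). Its order over the classes differed from that of Crip1, with 281 and 306 CPM in cells with both transcripts and 601 and 952 CPM in cells with neither. Anxa7 (2.20 and 0.93), Slamf1 (2.36 and 0.84) and Lgals9, which encodes the lectin galectin-9 (2.11 and 0.89), leaned the same way with large ratios in colon 1 that were smaller in colon 2. They were seen in few cells, Slamf1 in 8 of 54 and 29 of 163 Gzmb-only cells and Anxa7 in 10 and 18. Lrba (1.30 and 0.76), the gene of a protein that returns CTLA-4 from endosomes to the cell surface, and the anthrax toxin receptor gene Antxr2 (1.14 and 0.70) were also higher in Gzmb-only cells in both libraries. H2-Q10 (0.75 and 0.75) belongs to a family of near-identical genes, so its reads may be shared with other members.

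**Figure D3:**
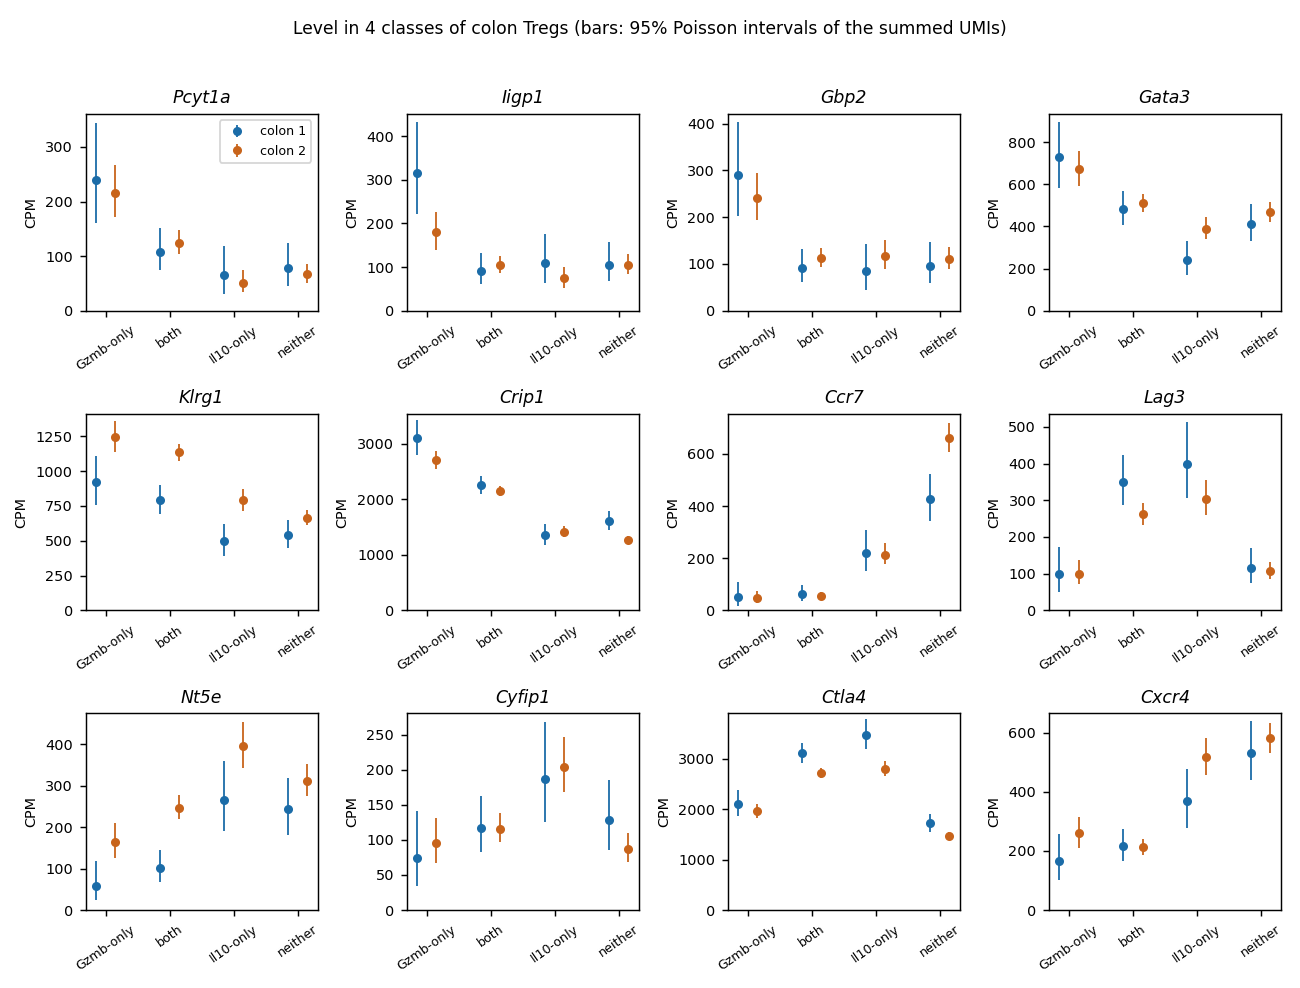
Level in CPM (vertical axes, each from 0) of 12 genes in Gzmb-only cells, cells with both transcripts, Il10-only cells and cells with neither, with colon 1 in blue, colon 2 in orange and 95% Poisson intervals as bars. Pcyt1a and Crip1 are higher in both classes with Gzmb, Lag3 and Ctla4 in both classes with Il10, and Ccr7 is highest in cells with neither.

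The clearest differences on the Il10-only side were in Ccr7 and Lag3. Ccr7 encodes the chemokine receptor that guides lymphocytes into lymph nodes (chromosome 11, 99144196 to 99155077, minus strand). It stood at 49.6 CPM in Gzmb-only and 219 CPM in Il10-only cells of colon 1, from 6 and 34 UMIs, and at 48.8 and 214 CPM in colon 2, from 19 and 113 UMIs. The levels were thus nearly the same in the 2 libraries. The log2 ratio was -2.14 (interval -3.69 to -0.87) in colon 1 and -2.13 (interval -2.92 to -1.42) in colon 2. The UMIs came from few cells: 10 Il10-only cells of colon 1 and 19 of colon 2 held any, the highest with 9 and 22. After thinning, 5.56% of Gzmb-only and 11.6% of Il10-only cells of colon 1 held a UMI (intervals 1.16 to 15.4% and 5.14 to 21.6%), and 2.45% and 6.54% of those of colon 2 (intervals 0.672 to 6.16% and 3.62 to 10.7%).

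Ccr7 was not a mark of Il10-only cells among all colon cells. Cells with neither transcript stood higher than the Il10-only cells, at 426 and 662 CPM, and cells with both stood with the Gzmb-only cells, at 62.1 and 55.9 CPM. Cells with 2 or more Gzmb UMIs and exactly 1 Il10 UMI, outside these 4 classes, stood at 130 CPM in colon 1 and 257 CPM in colon 2, the latter above the Il10-only cells, so high Gzmb did not always go with low Ccr7. The contrast also depended on the threshold: cells with exactly 1 Gzmb UMI and 0 Il10 UMIs, which the rule leaves out, had Ccr7 at 319 and 328 CPM. With a minimum of 1 UMI in place of 2, the mean log2 ratio of Ccr7 was -1.0002 and it no longer passed 2-fold in both libraries. In Cxcr4, the gene of another homing receptor, both classes with Gzmb were likewise the lower ones. Colon 1 gave 165 CPM in Gzmb-only cells, 216 with both, 368 in Il10-only cells and 532 CPM with neither. In colon 2 the values were 259, 213, 516 and 580 CPM. Its log2 ratio between the compared groups was -1.15 (interval -1.96 to -0.39) and -0.99 (interval -1.34 to -0.66), at the edge of the threshold.

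Lag3, which encodes an inhibitory receptor for MHC class II (chromosome 6, 124904361 to 124911705, minus strand), followed Il10 instead. It stood at 99.3 CPM in Gzmb-only and 400 CPM in Il10-only cells of colon 1, from 12 and 62 UMIs, and at 100 and 305 CPM in colon 2, from 39 and 161 UMIs. The log2 ratio was -2.01 (interval -3.04 to -1.10) and -1.61 (interval -2.15 to -1.09). Cells with both transcripts were near the Il10-only cells, at 350 and 261 CPM, and cells with neither near the Gzmb-only cells, at 115 and 107 CPM. After thinning, 27.5% of Il10-only and 28.1% of double-positive cells of colon 1 held a Lag3 UMI, against 11.1% of Gzmb-only cells. In colon 2 the shares were 28.0%, 27.5% and 11.7%.

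Ctla4, the gene of the inhibitory receptor that removes CD80 and CD86 from antigen-presenting cells, had the same order with a smaller ratio. It stood at 2109 CPM in Gzmb-only, 3469 in Il10-only, 3107 in double-positive and 1724 CPM in double-negative cells of colon 1, and at 1958, 2802, 2717 and 1472 CPM in colon 2. The log2 ratio was -0.72 (interval -0.94 to -0.50) and -0.52 (interval -0.64 to -0.39). The intervals of the classes with Il10 lay above those of the classes without it in each library.

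Nt5e encodes CD73, which makes adenosine from AMP (chromosome 9, 88327197 to 88372092). It stood at 57.9 CPM in Gzmb-only and 264 CPM in Il10-only cells of colon 1, and at 164 and 395 CPM in colon 2. The log2 ratio was -2.19 (interval -3.59 to -1.02) and -1.27 (interval -1.69 to -0.86). Cells with neither transcript stood at 243 and 312 CPM and cells with both at 101 and 247 CPM, so the Gzmb-only cells were the lowest class in each library. Dcaf15, the gene of a ubiquitin ligase substrate receptor, gave -2.07 (interval -3.81 to -0.68) and -1.40 (interval -2.22 to -0.65). Cyfip1, a regulator of actin and of translation, gave -1.33 and -1.11, and Mkrn1, the gene of a ubiquitin ligase, gave -1.10 (interval -2.48 to 0.12) and -1.01. In colon 1 the Cyfip1 UMIs of Il10-only cells lay in 7 cells, of which the highest held 12 of 29.

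The 7 histone genes rested on a handful of cells. In Il10-only cells the 3 cells with most histone UMIs held 77.5% of all 479 histone UMIs in colon 1 and 35.7% of 788 in colon 2, against 32.6% of 144 and 20% of 360 in Gzmb-only cells. Hist1h3d gave log2 ratios of -2.01 and -1.56, and H2afx gave -1.17 and -1.07. Without those 3 Il10-only cells of each library, a setting chosen after seeing the data, all 7 fell under 30 UMIs and 6 genes remained, namely the other 6 of the 13. Without cells with 2 or more UMIs of cell cycle genes, 4 of the 13 remained 2-fold (Ccr7, Lag3, Nt5e and Cyfip1) and 9 fell under 30 UMIs. These cells numbered 2 of 54 Gzmb-only and 4 of 69 Il10-only cells in colon 1, and 3 of 163 and 7 of 214 in colon 2. Histone genes are near-identical copies, and how shared reads were counted is not given in the sources used here.

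Read over 4 classes, the leading genes of the 2 sides differed in where the other classes stood. Of the 15 genes furthest toward Gzmb-only cells, 12 had their highest level in Gzmb-only cells in both libraries and 6 their lowest in Il10-only cells in both. Of the 15 furthest toward Il10-only cells, 12 had their highest level in Il10-only cells in both libraries and 13 their lowest in Gzmb-only cells in both. Genes chosen as the extremes between 2 groups tend to place any other class between them, so these places are a description from which nothing is read. Among the 13 genes called higher in Il10-only cells, the double-positive cells lay between the compared groups for 13 in each library and the double-negative cells for 12 in colon 1 and 10 in colon 2. Among the 4 called higher in Gzmb-only cells, each of these classes lay between for 3 in each library.

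**Figure D4:**
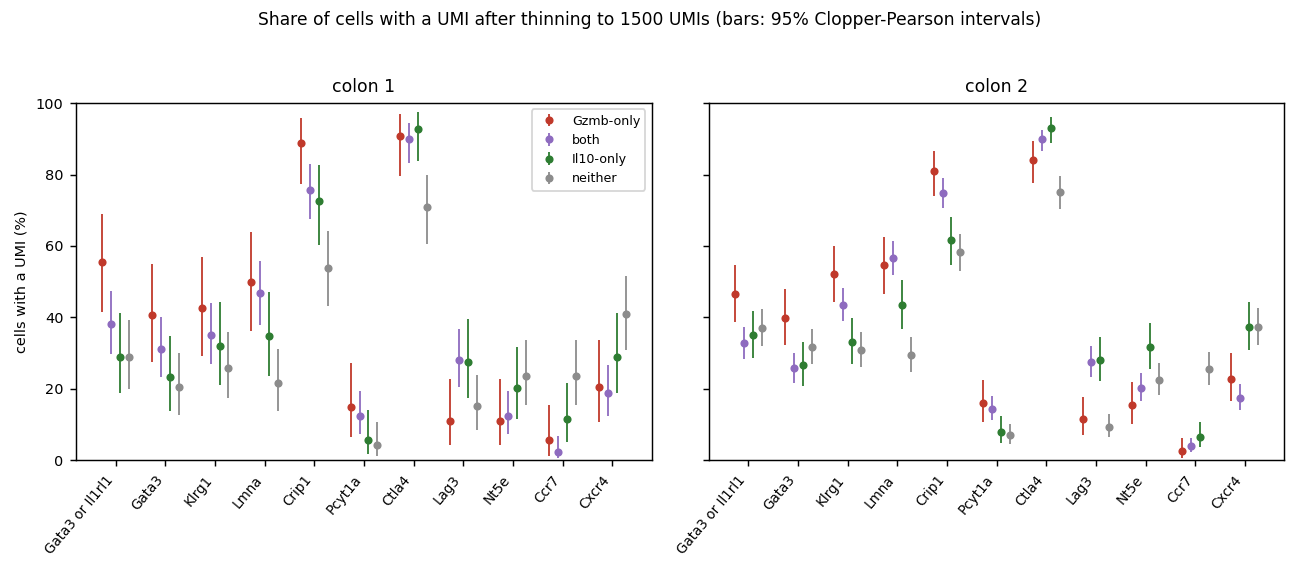
Share of cells in percent (vertical axis) with a UMI of Gata3 or Il1rl1, or of each of 10 genes, after every cell was thinned to 1500 UMIs, in colon 1 (left) and colon 2 (right), with 95% Clopper-Pearson intervals as bars. Gzmb-only cells (red) are highest for Gata3 or Il1rl1, at 55.6% and 46.6%, and Lag3 is higher in Il10-only (green) and double-positive cells (purple) than in Gzmb-only cells.

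Apart from Gzmb itself, most genes of cytotoxic granules were counted too rarely to be compared. Of the 31 genes of that list, 6 were eligible, with medians of 0.20 in colon 1 and -0.12 in colon 2, and 0 passed 2-fold in both libraries. Prf1, the pore-forming protein of granules, had 0 UMIs in Gzmb-only and 1 in Il10-only cells of colon 1, and 1 in each group of colon 2. Gzma had 0 UMIs in both groups of colon 1 and 10 and 6 in colon 2, where 6 came from 1 Il10-only cell. Nkg7, a granule membrane protein gene, had 10 and 2 UMIs in colon 1 and 14 and 17 in colon 2. Srgn, the proteoglycan that packs granule proteases, had log2 ratios of 0.076 and 0.0029. Klrg1 was the only eligible member that was higher in Gzmb-only cells by over 1.5-fold in both libraries.

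Regulators of Il10 showed a mixed picture. Maf, which encodes an activator of Il10 in T cells, gave log2 ratios of 0.045 (interval -0.32 to 0.40) and -0.43 (interval -0.61 to -0.26). Of 19 Il10 regulators and receptors, 12 were eligible, with medians of 0.08 and -0.28. In both libraries 3 were higher and 5 lower in Gzmb-only cells, beside 25.2% and 29.2% of all 1541 genes. The 3 were Id2 (0.52 and 0.32), Il21r (0.36 and 0.41) and Irf4 (0.64 and 0.0064). Among the 5, Il6st, the shared signaling chain of IL-6 family receptors, gave -1.40 (interval -2.42 to -0.48) and -0.68 (interval -1.07 to -0.29). Bhlhe40, a repressor of Il10 and also among the 5, gave -1.18 (interval -1.92 to -0.50) and -0.37 (interval -0.70 to -0.043). Prdm1, the Blimp-1 gene, changed sign and was not eligible, with 8 and 19 UMIs in colon 1 and 33 and 38 in colon 2.

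In the TGF-beta list 7 of 20 genes were eligible, with medians of 0.20 and -0.27. In both libraries 1 was higher in Gzmb-only cells, Itgav (0.43 and 0.31), and 3 were lower. Over all 1541 genes the shares were 25.2% and 29.2%. Furin, the protease that processes pro-TGF-beta, gave -1.68 (interval -3.01 to -0.54) and -0.66 (interval -1.16 to -0.19), and Skil, a repressor of SMAD signaling, gave -0.90 and -0.88. Itgae, which encodes the epithelial adhesion integrin CD103, gave 0.20 and -0.27, with both intervals spanning 0. Izumo1r, the Treg surface receptor also called folate receptor 4, was lower in Gzmb-only cells, at -1.45 (interval -2.08 to -0.85) and -0.65 (interval -0.997 to -0.31). Foxp3 gave 0.25 and -0.0013, and Icos 0.26 and -0.069, so neither leaned to the same side in both libraries.

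The antigen-presentation genes of MHC class I leaned toward Gzmb-only cells with small ratios. Of 14 genes 11 were eligible, with medians of 0.50 and 0.22, and 9 were higher in Gzmb-only cells in both libraries, 0 lower. Over all 1541 genes the medians were -0.013 and -0.026, and 25.2% were higher in both and 29.2% lower in both. H2-Q7 gave 1.02 (interval 0.74 to 1.30) and 0.39 (interval 0.22 to 0.56), with the same caution on copies as H2-Q10, and the immunoproteasome gene Psmb8 gave 0.62 and 0.56. Summed over the list, the level was 30119 CPM in Gzmb-only and 23838 CPM in Il10-only cells of colon 1, and 29621 and 25711 CPM in colon 2. Cells with both transcripts stood at 26059 and 29071 CPM, so in colon 2 they were level with the Gzmb-only cells.

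Of 20 interferon response genes 12 were eligible, with medians of 0.25 and 0.12, and 6 were higher in Gzmb-only cells in both libraries, 0 lower. The shares over all 1541 genes were 25.2% higher in both and 29.2% lower in both. Only Gbp2 of this list passed 2-fold in both, which 0.26% of all eligible genes did in this direction. Igtp, a GTPase gene related to Iigp1, gave 1.66 and 0.10, and Irf1 gave -1.08 and 0.15, so the list did not move as 1 in colon 1. Iigp1 is not on the list.

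The median of the eligible cell cycle genes was lower in Gzmb-only cells in both libraries, by less in colon 2. The summed level of dissociation and heat shock genes changed sides between the libraries. Of 21 cell cycle genes 7 were eligible, with medians of -0.89 in colon 1 and -0.25 in colon 2, and 5 were lower in Gzmb-only cells in both libraries, 0 higher in both. Over all 1541 genes, 29.2% were lower in both and 25.2% higher in both. Hmgb2 (-0.46 and 0.16) and H2afz (0.036 and -0.11) changed sign. Single cells held many of these UMIs. Stmn1, which destabilizes microtubules, had 24 UMIs in Il10-only cells of colon 1, of which 20 came from 1 cell. Of its 31 UMIs in Gzmb-only cells of colon 2, 23 came from 1 cell. In Il10-only cells of colon 1, the highest cell held 58 of 122 Tubb5 UMIs and 40 of 123 Tuba1b UMIs. Mki67 had 3 and 4 UMIs in colon 1 and 7 and 11 in colon 2. Genes induced by tissue dissociation and heat shock summed to 10704 CPM in Gzmb-only and 14108 CPM in Il10-only cells of colon 1, and to 12703 and 12029 CPM in colon 2. Of these 24 genes 20 were eligible, and 3 were higher and 6 lower in Gzmb-only cells in both libraries. Hspa1a, a heat-shock chaperone gene with a near-identical copy, gave -3.23 (interval -5.57 to -1.56) and 0.70 (interval 0.26 to 1.14), and Jun gave -3.85 and -0.35. The part of this response in the ratios of colon 1 was not tested.

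Cytokine genes of helper T cells gave few UMIs in both groups, and fewer in Gzmb-only cells. The 16 genes of the list, Il10 not among them, gave 2 UMIs in Gzmb-only and 13 in Il10-only cells of colon 1, and 3 and 24 in colon 2. The log2 ratio of these sums was -2.34 (interval -5.53 to -0.20) and -2.56 (interval -4.94 to -0.84). Cells with both transcripts stood at 58.8 and 62.2 CPM and cells with neither at 27.5 and 28.0 CPM. Of the 13 in colon 1, Il4 and Il13 held 4 each. None was eligible.

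**Figure D5:**
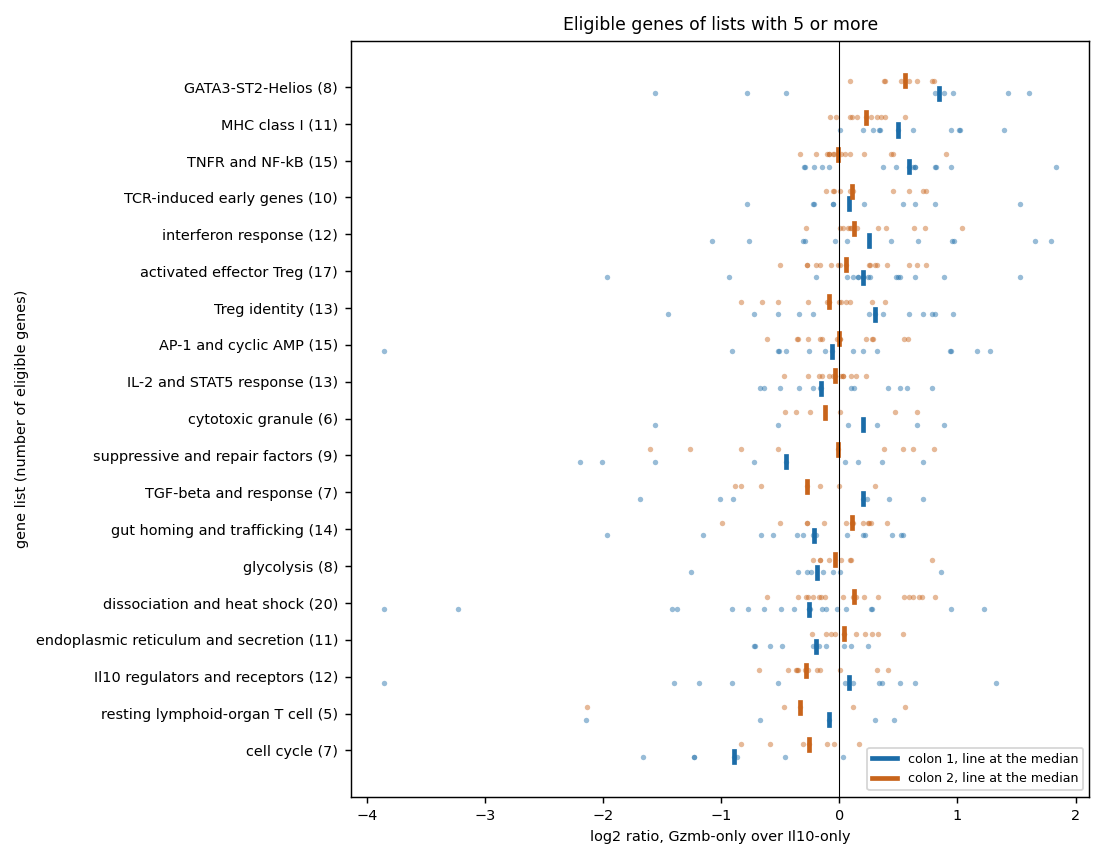
Log2 ratio of Gzmb-only over Il10-only cells (horizontal axis) for the eligible genes of each list shown, all with 5 or more, in colon 1 (blue) and colon 2 (orange), with a bar at each median. The GATA3-ST2-Helios list lies highest, with medians of 0.85 and 0.56, and the cell cycle list, at the bottom, has the lowest median in colon 1 (-0.89) but not in colon 2 (-0.25).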

How the data were processed

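Single-cell RNA was read by inDrops from sorted Tregs of 2 colon libraries and 1 spleen library. The deposited table holds counts: per the labels, each value is the number of unique reads (UMIs) of a gene in a cell, for 23725 genes. TopHat2, SAMtools and the build mm10 are listed in the submitters' processing notes. Tool versions, the annotation, how UMIs were collapsed and how cells were kept were not given in the sources used here. Cell sums came to 98.2% of the UMI numbers in the labels in each colon library. Colon columns were mapped by title, and 0 columns were left out.

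UMIs were summed per class and library in Python 3.11.15 (numpy 2.4.6, scipy 1.17.1, pandas 2.3.3) and scaled to CPM over all genes but Gzmb and Il10. A count of 0 was set to a floor of 3 counts in ratios. Intervals are exact at 95% and cover counting error only. For shares of cells, 1500 UMIs were drawn from each cell (seed 1). A gene was called at 2-fold in the same direction in both libraries among genes with 30 or more UMIs in each. No test across animals exists, since the labels name none. Calls and intervals were tried on simulated counts with counting error only, the error that the intervals assume. The simulation does not show how calls and intervals behave where a few cells hold many of a gene's UMIs.

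The text names, by rule, the 15 eligible genes furthest each way by the smaller of the 2 log2 ratios, without receptor, immunoglobulin, mitochondrial, ribosomal protein and unnamed genes, a set of 20 genes always named, and up to 4 genes of each of 31 lists by mean log2 ratio. Other genes named were chosen after their values were seen, and some results under the rule are not reported here. The members, lists and rule were chosen with earlier results of these data known. Gene positions are from GENCODE vM21 and promoters from RefSeq. Alternatives changed the UMI minimums, scaling (TMM in edgeR 4.0.16, median of ratios in DESeq2 1.42.0, R 4.3.3), filters, fold and cells kept. Doublets were not called: cells with 2 or more markers of another cell type were left out in an alternative.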

Additional observations from a re-analysis of the deposited data

Results flagged for a closer look

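Among the eligible genes, 3 passed 2-fold in opposite directions in the 2 colon libraries. Bax, which encodes an activator of apoptosis, had a log2 ratio of 1.003 in colon 1, from 25 UMIs in Gzmb-only and 16 in Il10-only cells, and of -1.08 in colon 2, from 23 and 66 UMIs. Ppig, which encodes a nuclear cyclophilin, gave 1.71 in colon 1 from 23 and 9 UMIs and -1.06 in colon 2 from 34 and 96. The gene 1110008F13Rik gave 1.36 from 22 and 11 UMIs and -1.16 from 30 and 91. The difference between the libraries was not tested for any of the 3, and their cells cannot be assigned to separate animals.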

How the results depend on the processing

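No paired analysis was possible because no value here comes from a test over samples. Each ratio is already taken within a library. The counts of genes 2-fold higher in Gzmb-only and in Il10-only cells were 4 and 13. With a gene minimum of 1 UMI they were 1 and 11, of which 1 and 4 were shared, with 4 UMIs 3 (Cd83, Crip1 and Lgals9) and 4, of which 0 and 2 were shared, and with cells of 2500 or more UMIs, which left 517 eligible genes, both were 2. The mean over cells of their own CPM gave 8 for the second. Without a filter on low counts they were 384 and 325, beside 609 genes in opposite directions, and with 100 UMIs in each library both were 0. A 1.5-fold threshold gave 27 and 43 and a 3-fold threshold 1 and 2. A single library gave 9 to 100 and 28 to 117. Without cells with cell cycle UMIs the second was 4, and without the 3 Il10-only cells with most histone UMIs 6. Cells with a Gata3 or Il1rl1 UMI gave 1 and 0, and cells without gave 0 and 5. Only the filters and smaller cell numbers are known to remove eligible genes, and no other cause was tested. Counts kept within 1.5 times do not mean the same genes: thinning gave 4 and 12, of which 3 and 7 were shared with the 4 and 13, cells of 1000 or more UMIs gave 4 and 16 with 3 and 9 shared, and leaving out the top cell of each gene gave 4 and 11 with 4 and 8 shared. Scaling by TMM or by median of ratios gave 4 and 11, all shared, with medians over all eligible genes between -0.026 and 0.024.

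Among the 17 called genes, reversed mean log2 ratios were found for 6 histone genes. Without cells with cell cycle UMIs Hist1h2ae gave 0.19 and Hist1h2ao 0.018. Without the 3 Il10-only cells, Hist1h2ae gave 0.51, Hist1h2ao 0.35, Hist1h2ai 0.075, H2afx 0.074, Hist1h2ag 0.039 and Hist1h2ab 0.012. Over 20 alternatives the mean log2 ratio of Pcyt1a ranged from 1.48 to 2.74, that of Gata3 from 0.56 to 1.69, that of Ccr7 from -3.32 to -1.0002, that of Lag3 from -2.42 to -1.23 and that of Nt5e from -2.19 to -1.17. Genes under 30 UMIs in a library could not be judged at this depth.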
